A study of Mus musculus with 4 samples.

Results

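The genes described here are 33 mouse genes of glycolysis and of the response to low oxygen, taken by gene symbol from a table of 25509 genes. All 33 were found, each in 1 row, and all 33 had enough counts to be among the 12135 genes tested. They comprise 21 genes that move glucose into the cell, turn it into pyruvate and lactate or steer the fate of these products, and 12 further genes that sense oxygen or are known to respond when it is scarce. RNA was sequenced from T cell cultures of 2 genotypes, Batf3-/- (2 libraries) and wild type (WT, 2 libraries), to ask which transcripts need BATF3, a transcription factor with a basic leucine zipper that belongs to the AP-1 superfamily. In both genotypes naive CD4+ T cells (CD25-, CD62L high, CD44 low) were sorted from spleen and stimulated for 72 h through CD3 and CD28 with TGF-beta, IL-4 and TL1A. These cytokines promote the TH9 state, in which helper T cells make interleukin-9, and TL1A (spelled TLA1 in the treatment label) is a TNF-family ligand that raises this output. The labels give neither the deleted exons of the Batf3-/- allele nor the strain or age of the mice, and they do not say that replicates came from separate mice or cultures. The p-values therefore measure only the spread between these 4 libraries, which the main test pools in part over genes.

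Glycolysis converts glucose into pyruvate through a chain of cytosolic enzymes, and activated T cells raise it strongly, sending much of the pyruvate to lactate even when oxygen is present. The transcription factor HIF-1 switches on most of these enzymes. Its alpha subunit is made continuously but is hydroxylated by oxygen-dependent prolyl hydroxylases and destroyed, so that it accumulates when oxygen is low or when T cell receptor and mTOR signalling drive its synthesis.

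The level of the deleted gene matched the labels, with Batf3 at 0.535 and 0.517 counts per 1000000 (CPM) in the Batf3-/- libraries, against 61.7 and 60.5 CPM in the WT libraries. Estimated counts per library summed to between 15624874 and 31098059. The 6 CD4+ T cell markers in the table summed to 1508 and 1586 CPM in Batf3-/- libraries, against 1646 and 1459 CPM in WT libraries. Il9, the marker of the TH9 state, was at 932 and 773 CPM in the Batf3-/- libraries, against 978 and 1559 CPM in the WT libraries. Both Batf3-/- values lay below both WT values, but WT library 1 was closer to them than to WT library 2, and the difference did not pass (log2 fold change -0.57, unadjusted p = 0.0211, edgeR adjusted p = 0.898). Markers of other cells were low in each library, with a sum of at most 27.0 CPM for B cells (Ms4a1 at 0), 9.09 for CD8+ T cells, 9.09 for dendritic cells (Clec9a at 0), 0.645 for myeloid cells (Lyz2, S100a8 and S100a9 at 0), 0.437 for NK cells (Klrb1c and Ncr1 at 0) and 0.647 for erythroid cells. Libraries with the same replicate number share a title prefix (E85 for replicate 1 and E87 for replicate 2 of both genotypes), whose meaning the labels do not give. They also shared a sex-linked signal: Xist, the RNA of the inactive X chromosome, was at 0.0944 CPM in Batf3-/- library 1 and 144 CPM in Batf3-/- library 2, against 0.214 CPM in WT library 1 and 166 CPM in WT library 2, while the Y-linked Ddx3y was read in all 4 at 44.8 to 90.9 CPM. WT library 1 stood apart from the other 3 in base composition. Its log2 CPM deviated from the mean of all libraries by a fitted 0.27 at 40% GC and by -0.30 at 60% GC. No other library passed 0.18 in size at either point. The trend also went with genotype: at 60% GC it was 0.177 and 0.174 in the Batf3-/- libraries, against -0.297 and -0.0542 in the WT libraries. The parts of sex, of base composition and of the Il9 level in the differences below were not tested, and in bulk RNA fewer cells of a type cannot be told apart from less RNA per cell.

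None of the 33 genes passed an adjusted p of 0.05 in edgeR's quasi-likelihood test on genotype alone over all tested genes. That is 0 higher and 0 lower, against 0.0824% of all tested genes called higher (10 genes) and 0.0494% called lower (6 genes). At an unadjusted p under 0.05 edgeR gave 2 higher and 0 lower members, beside 3.40% of all tested genes higher and 1.40% lower, and DESeq2 also gave 2 at that threshold and 0 after adjustment. The 2 were Slc16a3, a lactate exporter, and Ddit4, an inhibitor of mTOR signalling. The members' median log2 fold change (Batf3-/- over WT) was 0.02, against -0.01 over all tested genes, and single values ran from -0.39 for Bnip3 to 0.79 for Slc16a3. Both Batf3-/- libraries lay above both WT libraries for 5 members (Tpi1, Pgk1, Ldha, Slc16a3 and Ddit4), beside 18.2% of all tested genes, and below both for 3 members (Slc16a1, Hif1a and P4ha1), beside 15.6% of all tested genes. Neither count exceeds its background share. For the remaining 25 members the genotypes overlapped. Standard errors of the log2 fold change were 0.182 to 0.257, so that the 95% intervals of 32 members lay within a 2-fold change either way and those of 18 within a 1.5-fold change.

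**Figure D1:**
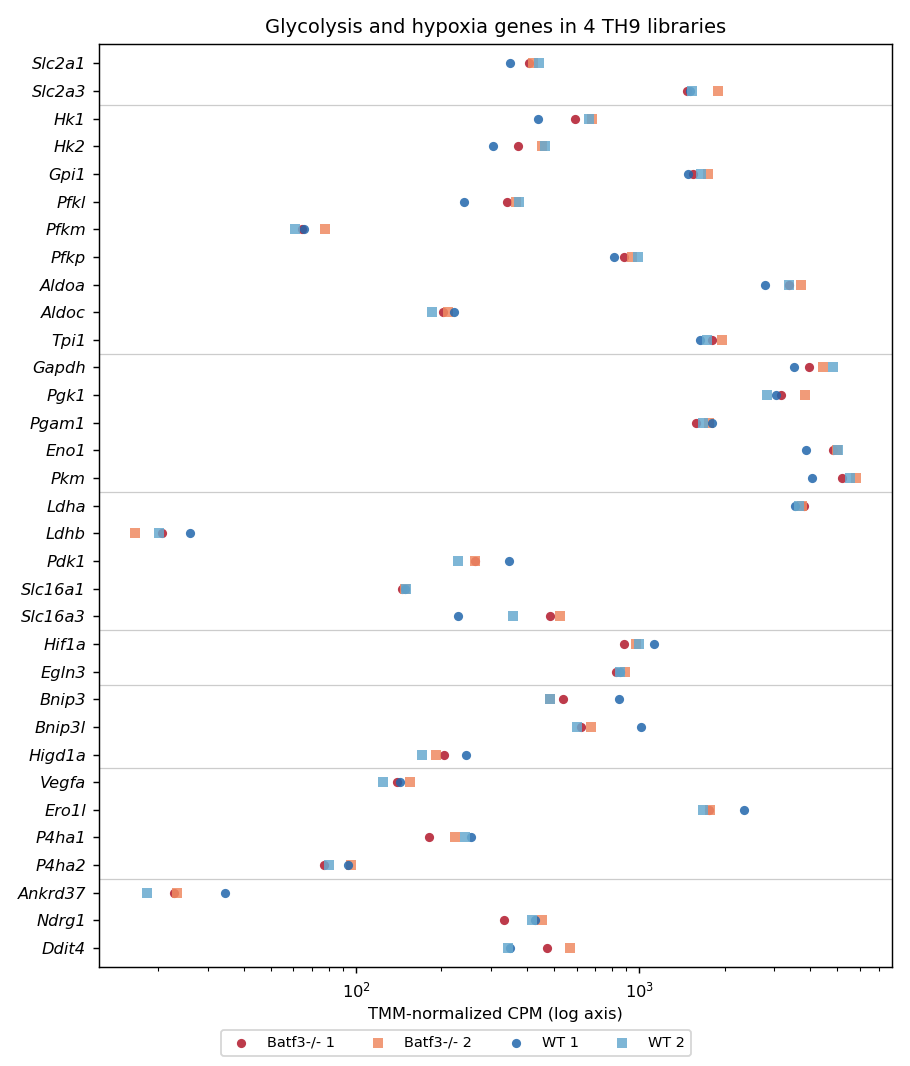
Level of each of the 33 genes in each library, as TMM-normalized CPM on a log axis, with Batf3-/- libraries in red tones, WT libraries in blue tones and lines between groups of genes by role. Slc16a3 and Ddit4 are the rows where both Batf3-/- points lie clearly to the right of both WT points, while in rows such as Bnip3, Bnip3l and Ankrd37 WT library 1 lies alone on the right.

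Expression of the glycolytic chain was high in both genotypes. As TMM-normalized CPM divided by the merged exon length of the gene, Pgk1, Aldoa, Ldha, Pkm, Gapdh, Eno1, Pgam1 and Tpi1 were the 8 highest members, with 1569 CPM per kb in Batf3-/- cells and 1307 CPM per kb in WT cells at the top and 682 CPM per kb in Batf3-/- cells and 613 CPM per kb in WT cells at the 8th place. On this scale Tpi1 stood at percentile 99.3 of all tested genes. Division by the longest transcript gave the same 8 genes in another order, with Eno1 in front and Pgk1 in 5th place, so that their order among themselves depends on the length used. By merged exon length the 3 lowest members were Ankrd37, P4ha2 and Ldhb. Ldhb stood at 11.8 CPM per kb in Batf3-/- cells and 14.7 CPM per kb in WT cells, still at percentile 71.5 of tested genes. By longest transcript Ldhb was again the lowest, but Pfkm took the place of P4ha2 among these 3. As a share of all estimated counts, the 33 genes took 4.15% and 4.41% in the Batf3-/- libraries, against 3.75% and 4.20% in the WT libraries. WT library 1 had the smallest share and the other WT library lay between the Batf3-/- libraries.

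Glucose enters T cells mainly through the transporters encoded by Slc2a1 (GLUT1) and Slc2a3 (GLUT3). Slc2a1 stood at 409 and 422 CPM in Batf3-/- libraries 1 and 2, against 349 and 442 CPM in WT libraries 1 and 2 (log2 fold change 0.07, SE 0.196). Slc2a3, the high-affinity transporter, stood at 1473 and 1901 CPM in the Batf3-/- libraries and 1515 and 1538 CPM in the WT libraries (log2 fold change 0.14, SE 0.206). The genotypes overlapped for both genes. Of the glucose transporter counts per kb from Slc2a1, Slc2a2, Slc2a3 and Slc2a4, Slc2a3 held 63.5% and 68.5% in the Batf3-/- libraries and 67.7% and 62.7% in the WT libraries, so that it was the main form in each library. Slc2a6, Slc2a8 and Slc2a9 were left out of this sum. Their means were 12.8, 7.54 and 1.71 CPM per kb in Batf3-/- cells and 8.58, 4.39 and 1.80 CPM per kb in WT cells.

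Hexokinases trap glucose by phosphorylating it. Hk1, the constitutive form, stood at 592 and 679 CPM in the Batf3-/- libraries and 437 and 665 CPM in the WT libraries (log2 fold change 0.21, SE 0.216). Hk2, the inducible form, stood at 374 and 454 CPM in the Batf3-/- libraries and 303 and 463 CPM in the WT libraries (log2 fold change 0.11, SE 0.217). In both genes WT library 1 was the lowest, and WT library 2 lay between the Batf3-/- libraries for Hk1 and above them for Hk2. Counts per kb of merged exon were split almost evenly, with an Hk1 share of 52.1% and 50.8% in the Batf3-/- libraries and 49.8% and 49.8% in the WT libraries. By longest transcript the Hk1 share averaged 66.1% in Batf3-/- cells and 64.6% in WT cells, so the even split depends on the length used.

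The next enzymes rearrange and split the sugar. Gpi1, the isomerase that makes fructose phosphate, stood at 1554 and 1747 CPM in the Batf3-/- libraries and 1487 and 1647 CPM in the WT libraries. Phosphofructokinase, which commits the sugar to glycolysis, has a liver (Pfkl), a muscle (Pfkm) and a platelet (Pfkp) form. Pfkl stood at 341 and 367 CPM in the Batf3-/- libraries and 241 and 377 CPM in the WT libraries (log2 fold change 0.19, SE 0.215), with WT library 1 alone at the bottom. Pfkm stood at 64.3 and 77.5 CPM in the Batf3-/- libraries and 65.6 and 60.7 CPM in the WT libraries. The level of Pfkp was 879.9 and 940.3 CPM in the Batf3-/- libraries and 812 and 986 CPM in the WT libraries, with WT library 1 lowest and WT library 2 highest. None of the 3 forms separated the genotypes. Per kb of merged exon the Pfkp share was 48.3% and 47.3% in the Batf3-/- libraries and 52.1% and 49.6% in the WT libraries. Pfkl followed with 37.5% and 37.1% in the Batf3-/- libraries and 31.0% and 38.1% in the WT libraries, and Pfkm held the remainder, at most 16.9% in a library. The order of the 3 forms was the same in the 4 libraries.

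Aldolase splits fructose bisphosphate into triose phosphates. Aldoa, the ubiquitous form, stood at 3376 and 3725 CPM in the Batf3-/- libraries and 2788 and 3379 CPM in the WT libraries (log2 fold change 0.20, SE 0.208). Aldoc, best known from brain, stood at 202 and 211 CPM in the Batf3-/- libraries and 221 and 185 CPM in the WT libraries. Aldoa held 95.1% ± 0.184 in Batf3-/- cells and 94.4% ± 1.37 in WT cells (SD, n = 2 each) of the aldolase counts per kb and Aldoc nearly all of the rest. Tpi1, which interconverts the triose phosphates, stood at 1803 and 1952 CPM in the Batf3-/- libraries and 1633 and 1739.8 CPM in the WT libraries. Its Batf3-/- libraries lay above the WT libraries, by a log2 fold change of 0.15 with a 95% interval of -0.26 to 0.57.

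The lower chain harvests ATP and ends in pyruvate. Gapdh, which oxidizes glyceraldehyde phosphate, stood at 3990.3 and 4448 CPM in the Batf3-/- libraries and 3516 and 4820.1 CPM in the WT libraries (log2 fold change 0.02, SE 0.218). The WT libraries were the lowest and the highest of the 4 for this gene, so that the genotypes overlapped over their whole range. Pgam1, the phosphoglycerate mutase, stood at 1581 and 1767 CPM in the Batf3-/- libraries and 1804 and 1683 CPM in the WT libraries. Eno1, the enolase, stood at 4848 and 4982 CPM in the Batf3-/- libraries and 3869.6 and 5016 CPM in the WT libraries (log2 fold change 0.15, SE 0.213). Pkm, the pyruvate kinase, stood at 5190.2 and 5845 CPM in the Batf3-/- libraries and 4062 and 5557 CPM in the WT libraries (log2 fold change 0.20, SE 0.220). For Eno1 and Pkm, 3 libraries were close together and WT library 1 was the lowest. Without WT library 1 their log2 fold changes were -0.04 and -0.02. Eno1 held 98.7% ± 0.291 in Batf3-/- cells and 98.5% ± 0.558 in WT cells (SD, n = 2 each) of the enolase counts per kb, and Pkm had all pyruvate kinase counts, since Pklr was at 0 in each library. The table sums the transcripts of a gene, so the alternatively spliced forms of Pkm were not resolved.

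Pgk1, the phosphoglycerate kinase (ENSMUSG00000062070.12, GRCm38 chromosome X, 106187100 to 106203699, plus strand), stood at 3178 and 3864 CPM in the Batf3-/- libraries and 3045 and 2823 CPM in the WT libraries (log2 fold change 0.26, SE 0.208, 95% interval -0.17 to 0.70). Both Batf3-/- libraries were above both WT libraries. This value is uncertain, because reads were divided between Pgk1 and the processed pseudogene Pgk1-rs7 on chromosome 12 (10898986 to 10900240, GRCm38). Both genes had fractional counts in all 4 libraries, and their sums were whole numbers in each (151783 and 82960 in the Batf3-/- libraries, 125112 and 122854 in the WT libraries). The pseudogene took 33.5% and 27.97% of the sum in Batf3-/- libraries, against 43.2% and 37.0% in WT libraries. Their summed level was 4777 and 5364 CPM in the Batf3-/- libraries and 5363 and 4478 CPM in the WT libraries, where the genotypes overlap. Fitted as the sum, the log2 fold change was 0.05. Eno1 shared reads with Eno1b in the same way, but Eno1b took 3.37% and 2.998% of their sum in Batf3-/- libraries and 4.68% and 3.72% in WT libraries. In all, 7 members had fractional counts in the 4 libraries (Gpi1, Pfkp, Aldoa, Gapdh, Pgk1, Eno1 and Ankrd37).

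Pyruvate can be reduced to lactate or burned in mitochondria. Ldha, the subunit that favours lactate formation, stood at 3802 and 3748 CPM in the Batf3-/- libraries and 3548 and 3665 CPM in the WT libraries (log2 fold change 0.07, SE 0.203). Ldhb, the subunit of tissues that consume lactate, stood at 20.6 and 16.5 CPM in the Batf3-/- libraries and 25.9 and 20.2 CPM in the WT libraries (log2 fold change -0.30, SE 0.224). Ldha held 98.97% ± 0.148 in Batf3-/- cells and 98.7% ± 0.260 in WT cells (SD, n = 2 each) of the lactate dehydrogenase counts per kb. Pdk1 encodes a kinase that shuts pyruvate dehydrogenase and so limits the burning of pyruvate in mitochondria. It stood at 263 and 262 CPM in the Batf3-/- libraries and 346 and 228 CPM in the WT libraries (log2 fold change -0.13, SE 0.210). WT library 1 was the highest and WT library 2 the lowest for Pdk1. Per kb, Pdk1 and Pdk3 shared the kinase family, with Pdk1 at 54.2% and 52.7% in the Batf3-/- libraries and 53.9% and 47.4% in the WT libraries. The Pdk3 share was 43.6% and 43.8% in the Batf3-/- libraries and 44.2% and 49.9% in the WT libraries, so that on this scale Pdk3 led in WT library 2 alone. By longest transcript Pdk1 led there as well, with 52.5% against 44.6% for Pdk3, so this order depends on the length used.

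Lactate leaves the cell through monocarboxylate transporters, and here lay the largest difference among the 33 genes. Slc16a3 (ENSMUSG00000025161.16, GRCm38 chromosome 11, 120948480 to 120960868, plus strand) encodes MCT4, the exporter typical of highly glycolytic cells. It stood at 483 and 526 CPM in Batf3-/- libraries 1 and 2, against 228 and 357 CPM in WT libraries 1 and 2. Both Batf3-/- libraries were above both WT libraries, and the WT libraries differed more from each other than the Batf3-/- libraries did. The means were 505 ± 29.8 CPM in Batf3-/- cells and 293 ± 91.0 CPM in WT cells (SD, n = 2 each), a fitted 1.72-fold difference (log2 fold change 0.79, SE 0.217, 95% interval 0.33 to 1.24). The unadjusted p was 0.00188 and the adjusted p 0.358 in edgeR's quasi-likelihood test on genotype alone, so the difference did not pass there. With the replicate number, which goes with the title prefix, as an added term (replicate block), the log2 fold change was 0.82 and passed (edgeR adjusted p = 0.00236), and with the GC correction in the same fit it was 0.63 (adjusted p = 0.0114). Taken by replicate number, the log2 ratios were 1.08 within replicate 1 and 0.56 within replicate 2. Without WT library 1, the log2 fold change was 0.49 (edgeR adjusted p = 0.301), without WT library 2 it was 1.14 (adjusted p = 2.92e-05), and after a correction for GC content it was 0.61 (adjusted p = 0.875).

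Slc16a1, which encodes MCT1, a transporter that carries lactate in either direction, stood at 145 and 148 CPM in Batf3-/- libraries 1 and 2, against 149 and 149.7 CPM in WT libraries 1 and 2. All 4 values lay within a narrow band, and the log2 fold change was -0.03 (95% interval -0.41 to 0.36). Slc16a3 therefore made up a larger share of the lactate transporter counts per kb in Batf3-/- cells, with 73.5% and 74.7% in the Batf3-/- libraries and 56.1% and 66.5% in the WT libraries. The mean shares were 74.1% ± 0.813 in Batf3-/- cells and 61.3% ± 7.36 in WT cells (SD, n = 2 each). Their difference was 12.8 percentage points with all libraries and 7.62 without WT library 1. By longest transcript the mean shares were 77.8% in Batf3-/- cells and 66.0% in WT cells. The shares did not overlap between genotypes, which in an exact two-sided permutation test gave p = 0.333, the smallest that 2 against 2 libraries allow. After Benjamini-Hochberg adjustment over 47 shares this p was 0.870. Nor did the shares of Slc16a1, Slc2a2, Hk1, Hk2, Hk3, Pfkp, Pgam1, Pgam2, Ldha, Ldhb, Pdk3, Egln2, Hif1a, Epas1, Hif3a, P4ha1 and P4ha2 overlap. The shares of Slc2a1, Aldoa and Egln3, among others, did overlap. With 2 against 2 libraries, a fraction of 0.333 of all relabellings leaves distinct values without overlap. A lack of overlap alone was therefore not read as a difference. Slc16a7, the remaining transporter of this family that was examined, held at most 0.0189% in a library.

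**Figure D2:**
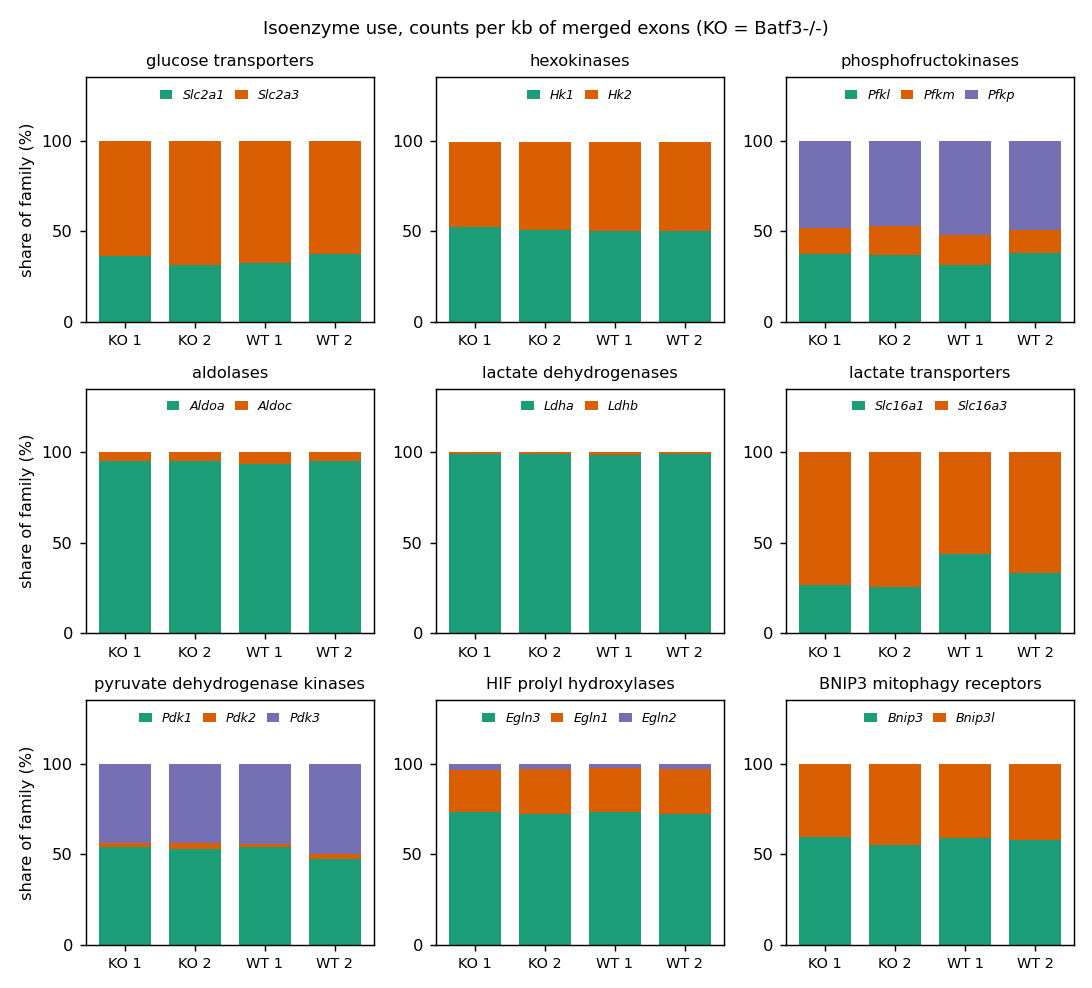
Share of each paralog that reached 1% in a library, of its family's counts per kb of merged exon, in percent, as stacked bars for each library of Batf3-/- (KO) and WT cells. The lactate transporters show the largest difference between genotype means, where Slc16a3 holds 73.5% and 74.7% in Batf3-/- libraries and 56.1% and 66.5% in WT libraries.

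The oxygen-sensing core was present in both genotypes. Hif1a, the oxygen-regulated subunit of HIF-1, stood at 886 and 970.1 CPM in Batf3-/- libraries 1 and 2, against 1128 and 993 CPM in WT libraries 1 and 2 (log2 fold change -0.19, SE 0.197). The Batf3-/- libraries were below the WT libraries, but the higher Batf3-/- value was closer to the lower WT value than the libraries of either genotype were to each other. Hif1a held 95.7% and 96.1% in the Batf3-/- libraries and 96.9% and 96.8% in the WT libraries of the counts per kb of the 3 alpha subunit genes, and Epas1 and Hif3a the rest. Egln3, a prolyl hydroxylase that marks HIF alpha subunits for destruction and is itself induced by HIF-1, stood at 827 and 888 CPM in the Batf3-/- libraries and 852 and 853 CPM in the WT libraries. Its log2 fold change was 0.01 with a 95% interval of -0.40 to 0.41. Egln3 was the main hydroxylase transcript, with 73.5% and 72.4% in the Batf3-/- libraries and 73.3% and 72.2% in the WT libraries of the family's counts per kb, followed by Egln1 with 22.8% and 24.5% in the Batf3-/- libraries and 24.4% and 25.1% in the WT libraries.

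Genes of mitochondrial turnover varied more between the WT libraries than between genotypes. Bnip3 (ENSMUSG00000078566.8, GRCm38 chromosome 7, 138890836 to 138909519, minus strand), a receptor that targets mitochondria for autophagy, stood at 536 and 483 CPM in Batf3-/- libraries 1 and 2, against 848 and 483 CPM in WT libraries 1 and 2. WT library 1 was the highest, and the remaining 3 libraries lay close together. The log2 fold change was -0.39 (SE 0.235), made up of -0.66 within replicate 1 and 0.00 within replicate 2. Bnip3l, the related receptor, stood at 624 and 674 CPM in the Batf3-/- libraries and 1014 and 600.2 CPM in the WT libraries (log2 fold change -0.31, SE 0.229), with the same library standing out. Without WT library 1 the log2 fold changes were 0.07 for Bnip3 and 0.10 for Bnip3l, and without WT library 2 they were -0.74 and -0.64 (edgeR adjusted p = 0.00371 and 0.0104). Higd1a, a small protein of the inner mitochondrial membrane, stood at 204 and 192 CPM in the Batf3-/- libraries and 244 and 171 CPM in the WT libraries. Its values likewise had the 2 WT libraries at the ends and the Batf3-/- libraries between them.

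Among the products for secretion and protein folding, Vegfa, the angiogenic growth factor, stood at 139.7 and 154 CPM in the Batf3-/- libraries and 142 and 124 CPM in the WT libraries (log2 fold change 0.14). Ero1l, the oxidase that supplies disulfide bonds in the endoplasmic reticulum, stood at 1763 and 1777 CPM in the Batf3-/- libraries and 2336 and 1684 CPM in the WT libraries (log2 fold change -0.18). WT library 1 was again the highest for Ero1l, and without it the log2 fold change was 0.06. P4ha1, a catalytic subunit of collagen prolyl hydroxylase, stood at 181 and 224 CPM in the Batf3-/- libraries and 254 and 241 CPM in the WT libraries (log2 fold change -0.29, SE 0.192, 95% interval -0.69 to 0.11). P4ha2, its paralog, stood at 77.1 and 95.6 CPM in the Batf3-/- libraries and 93.7 and 80.4 CPM in the WT libraries (log2 fold change -0.01). The groups did not overlap for P4ha1 and did for P4ha2, and the P4ha1 share of their counts per kb was 78.1% and 78.04% in the Batf3-/- libraries and 80.4% and 82.0% in the WT libraries.

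Of the remaining hypoxia-responsive genes, Ddit4 (ENSMUSG00000020108.3, GRCm38 chromosome 10, 59949669 to 59951834, minus strand) encodes REDD1, a stress-induced inhibitor of the kinase complex mTORC1. It stood at 471 and 568 CPM in Batf3-/- libraries 1 and 2, against 349 and 345 CPM in WT libraries 1 and 2. Both Batf3-/- libraries were above both WT libraries, which were nearly equal. The means were 519.8 ± 68.4 CPM in Batf3-/- cells and 347 ± 3.03 CPM in WT cells (SD, n = 2 each), a fitted 1.498-fold difference (log2 fold change 0.58, SE 0.194, 95% interval 0.18 to 0.99). The unadjusted p was 0.00732 and the adjusted p 0.708 in edgeR, so this difference did not pass either. Taken by replicate number, the log2 ratios were 0.43 within replicate 1 and 0.72 within replicate 2. The log2 fold change was 0.58 without WT library 1 and 0.57 without WT library 2 (edgeR adjusted p = 0.150 and 0.0449), and 0.34 after the correction for GC content. Ndrg1, a stress-responsive cytoplasmic protein, stood at 333 and 453 CPM in the Batf3-/- libraries and 429 and 418 CPM in the WT libraries (log2 fold change -0.11). Ankrd37, an ankyrin repeat protein and HIF-1 target, stood at 22.6 and 23.3 CPM in the Batf3-/- libraries and 34.2 and 18.2 CPM in the WT libraries (log2 fold change -0.19, SE 0.257). Ankrd37 had the largest standard error of the 33 genes, with the WT libraries at the ends of the range.

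**Figure D3:**
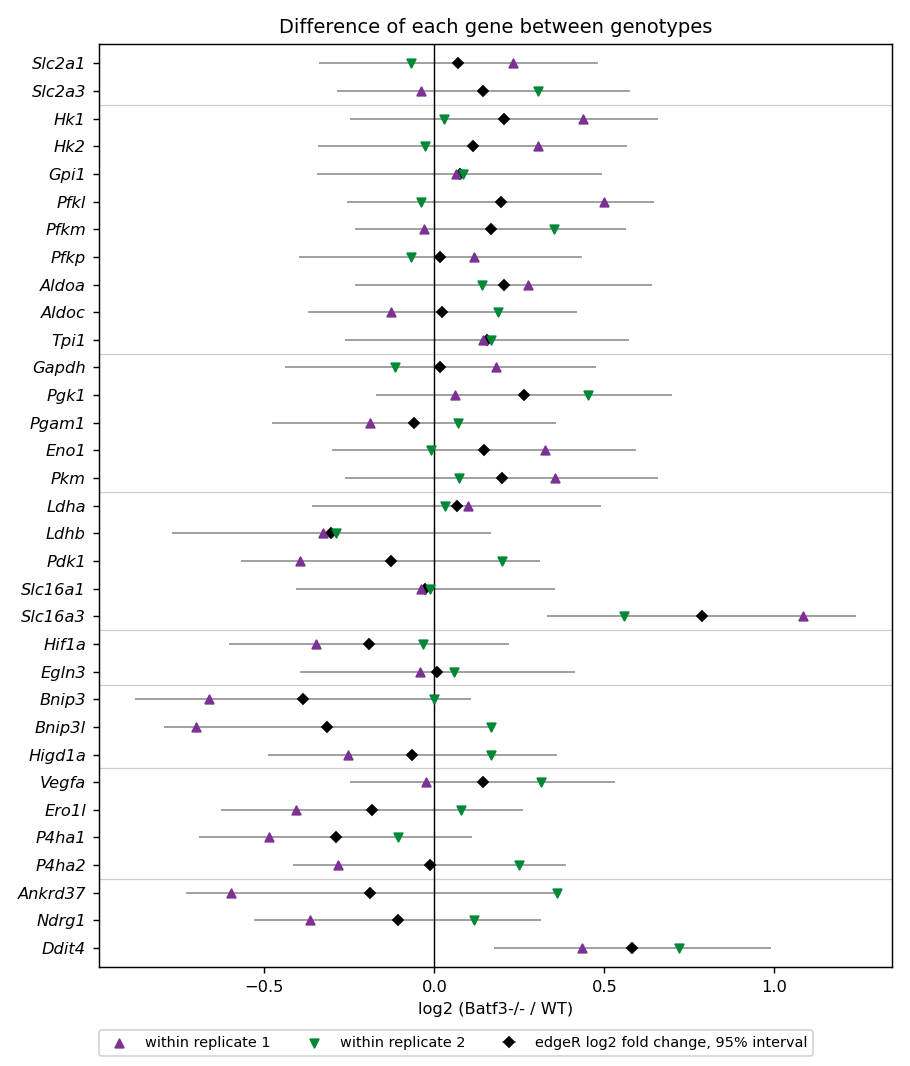
Log2 ratio of Batf3-/- over WT for each gene: diamonds with lines are the edgeR log2 fold change and its 95% interval, and triangles are the ratios within replicate 1 (upward) and replicate 2 (downward). The interval excludes 0 for Slc16a3 and Ddit4, and for Bnip3 and Bnip3l the ratio within replicate 1 is -0.66 and -0.70 while that within replicate 2 is 0.00 and 0.17.

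The glucose and lactate genes and the other hypoxia genes leaned in different directions, and WT library 1 lay at the edge of both. Among the 21 glucose, pyruvate and lactate genes 17 had a positive and 4 a negative log2 fold change (median 0.11), and among the 12 others 3 were positive and 9 negative (median -0.15). Within replicate 1 the medians were 0.12 and -0.36, while within replicate 2 they were 0.07 and 0.14. Without WT library 1 the medians were -0.02 and 0.08, so that both signs turned. WT library 1 was the lowest of the 4 libraries for 13 of the 21 genes and the highest for 4, and it was the lowest for 0 and the highest for 7 of the 12. Over all tested genes it was the lowest for 32.4% and the highest for 33.3%. For 21 of the 33 genes the WT libraries differed from each other by more than the fitted difference between genotypes.

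**Figure D4:**
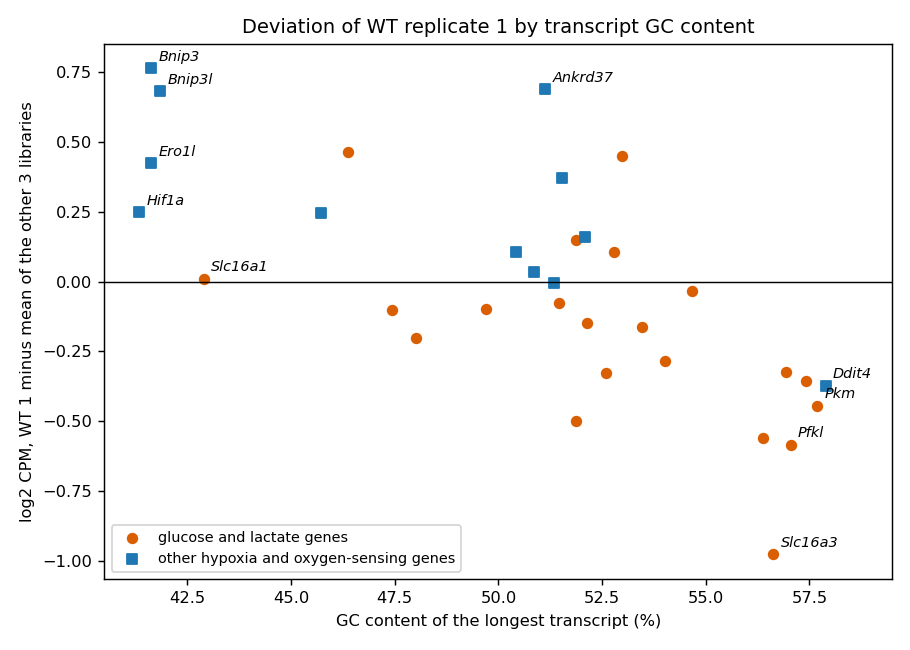
Deviation of WT library 1 from the mean of the other 3 libraries, as a difference of log2 CPM, against the GC content in percent of the longest transcript, for the 21 glucose and lactate genes (circles) and the 12 other genes (squares). Points run from the upper left (Bnip3, 0.76 at 41.6% GC) to the lower right (Slc16a3, -0.98 at 56.6% GC).

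The members' deviation in WT library 1 ran with the base composition of their transcripts. Across the 33 genes, whose values come from the same 4 libraries, the deviation of WT library 1 from the mean of the other 3 had Pearson's r of -0.70 and Spearman's rho of -0.71 with the GC content of the longest transcript. Over 12105 tested genes the same measures were -0.44 and -0.55. Genes are not independent replicates, and these values describe 1 library. Of the 8 members under 48% GC, WT library 1 was the highest for 6 and the lowest for 0. Of the 7 members with at least 55% GC it was the lowest for 6 and the highest for 0, Ddit4 (57.9% GC) being the exception. After a correction for GC content 0 members passed in edgeR, with 1 at an unadjusted p under 0.05, and 8 log2 fold changes, each of at most 0.20 in size before it, changed sign.

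A list of 102 further genes of glucose transport, glycolysis and its regulators, pyruvate and lactate use, the pentose phosphate pathway, oxygen sensing and hypoxia responses was read out from the same fit. Of these, 101 were in the table and 82 were tested. In edgeR 0 of the 82 were called higher and 0 lower, 5 were higher and 0 lower at an unadjusted p under 0.05, beside 3.40% of all tested genes higher and 1.40% lower, and their median log2 fold change was -0.02, against -0.01 over all tested genes. Both Batf3-/- libraries lay above both WT libraries for 18 of the 82, beside 18.2% of all tested genes, and below both for 11, beside 15.6%. Slc2a8, a glucose transporter of internal membranes, had the smallest p, at 23.8 and 24.6 CPM in the Batf3-/- libraries and 13.7 and 14.5 CPM in the WT libraries (log2 fold change 0.78, edgeR adjusted p = 0.356). Pgls, an enzyme of the pentose phosphate pathway, stood at 74.8 and 73.6 CPM in the Batf3-/- libraries and 44.98 and 50.2 CPM in the WT libraries (log2 fold change 0.64, adjusted p = 0.444). Slc2a6, a further member of the transporter family, stood at 45.7 and 36.3 CPM in the Batf3-/- libraries and 23.7 and 31.4 CPM in the WT libraries (log2 fold change 0.58, adjusted p = 0.840), and Nos2, the inducible nitric oxide synthase, at 25.3 and 35.1 CPM in the Batf3-/- libraries and 20.7 and 21.1 CPM in the WT libraries (log2 fold change 0.52, adjusted p = 0.940). These 4 genes, picked for their small p, are among the 18. The longest transcripts of Slc2a8 and Slc2a6 have 60.8% and 58.2% GC, against a median of 49.8% over all tested genes. The part of base composition in these differences was not tested. The subgroups had 0 genes called in either direction, and their medians ran from -0.08 for the 15 pyruvate and lactate genes to 0.27 for the 4 glucose transporters.

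The promoters of the members were searched for the DNA core of the hypoxia response. Many members are known HIF-1 targets, so the presence of this core is not independent of how they were chosen, and its share is given as a description. Hypoxia-inducible factors bind DNA at a short core, searched here as ACGTG and GCGTG on both strands, where the palindrome CACGTG counts on each strand. Windows of 300 bases (250 before to 50 after the start) were matched in RefSeq's GRCm38.p6 annotation for 30 members, with 43 windows; Slc2a3, Bnip3l and Ndrg1 were not matched. At least 1 core was present for 28 of the 30 members (93.3%), against 68.6% of the 9162 tested genes and 46.7% of all 27025 genes with a window. Gpi1 and Tpi1 had none. Members' windows had a median GC content of 64.7%, against 52.7% for all windows, and the part of base composition in the share with a core was not tested. The AP-1 site, searched as TGACTCA and TGAGTCA (reverse complements of each other), was in the windows of 1 of the 30 members (Aldoa), or 3.33%, against 4.34% of tested genes. A match is a run of letters and not a measured site.

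Windows are printed for the pair of genes with the largest differences (Slc16a3, chr11:120948817-120949116, plus strand, and Ddit4, chr10:59951721-59952020, minus strand), for the gene with the lowest log2 fold change (Bnip3, chr7:138909457-138909756, minus strand) and for Ldha (chr7:46845554-46845853, plus strand), whose window holds 7 core matches, the most among members. Sequences are from RefSeq (GRCm38.p6), 5′ to 3′ on the gene's strand, with hypoxia cores on either strand in capitals.
Slc16a3: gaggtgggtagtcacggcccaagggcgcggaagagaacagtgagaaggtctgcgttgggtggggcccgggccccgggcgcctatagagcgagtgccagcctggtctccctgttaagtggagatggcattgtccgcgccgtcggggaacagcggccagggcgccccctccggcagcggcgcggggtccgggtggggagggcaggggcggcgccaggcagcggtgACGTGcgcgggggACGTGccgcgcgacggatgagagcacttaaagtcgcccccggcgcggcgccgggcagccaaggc
Ddit4: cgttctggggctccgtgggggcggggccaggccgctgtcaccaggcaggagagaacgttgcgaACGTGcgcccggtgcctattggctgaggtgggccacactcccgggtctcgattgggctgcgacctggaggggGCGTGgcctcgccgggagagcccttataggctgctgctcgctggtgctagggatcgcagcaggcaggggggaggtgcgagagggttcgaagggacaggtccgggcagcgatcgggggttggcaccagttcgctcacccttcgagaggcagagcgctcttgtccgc
Bnip3: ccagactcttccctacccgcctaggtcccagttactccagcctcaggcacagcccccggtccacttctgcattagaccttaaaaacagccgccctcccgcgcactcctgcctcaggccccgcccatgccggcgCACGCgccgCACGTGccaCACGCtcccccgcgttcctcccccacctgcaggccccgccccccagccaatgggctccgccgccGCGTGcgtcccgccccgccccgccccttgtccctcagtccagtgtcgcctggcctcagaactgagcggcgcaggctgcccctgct
Ldha: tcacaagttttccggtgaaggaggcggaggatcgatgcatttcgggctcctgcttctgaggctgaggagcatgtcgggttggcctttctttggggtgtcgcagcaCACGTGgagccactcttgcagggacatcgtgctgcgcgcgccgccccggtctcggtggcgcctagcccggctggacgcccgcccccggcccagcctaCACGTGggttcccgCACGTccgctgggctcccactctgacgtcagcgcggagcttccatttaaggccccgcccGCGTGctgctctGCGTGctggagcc
Slc16a3 and Ddit4 hold 2 core matches each, Bnip3 holds 5 and Ldha 7, while the log2 fold changes of these 4 genes were 0.79, 0.58, -0.39 and 0.07 in the same order.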

How the data were processed

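Polyadenylated RNA was sequenced from 4 libraries of mouse T cells, prepared with a stranded kit according to the protocols in the labels. The authors deposited expected counts from RSEM for each gene, in which reads that match several genes are split among them. STAR 2.5.0 and RSEM 1.2.25 on GRCm38 are named in the submitters' processing notes; the gene annotation and whether strand was used in counting were not stated there, so overlapping genes and close copies are uncertain. The 92 spike-in entries were 0 and were left out.

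Samples were grouped by genotype label and numbered by the replicate in their titles. Expected counts were rounded, and genes were filtered with filterByExpr (minimum count 10, minimum total count 15). Tests used R 4.3.3 with edgeR 4.0.16: TMM (factors 0.982 to 1.02), robust glmQLFit with legacy=FALSE and a two-sided glmQLFTest on genotype alone, with Benjamini-Hochberg adjustment over 12135 genes at 0.05. Limma 3.58.1 was loaded with edgeR. The biological coefficient of variation common to all genes was 0.171. Each gene's spread was drawn toward that of all tested genes, with a median of 16.8 prior degrees of freedom. Levels are CPM after TMM scaling, and per-library log2 ratios use a prior count of 0.5. Replicates differed beyond sampling noise (chi-square per degree of freedom 22.8 in Batf3-/- and 63.0 in WT cells), so none were merged. The procedure was tested on simulated counts. These were drawn with the dispersion common to all genes and without a trend on base composition, so the test does not cover the trend in WT library 1.

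Paralog shares are counts per kb within each family, compared with an exact permutation test. Gene positions (1-based), exon lengths and transcript GC are from GENCODE M21 on GRCm38, available for 99.8% of tested genes; promoter windows are RefSeq's. Other settings were DESeq2's size factors, no filter, DESeq2 1.42.0, leaving out each library, a GC correction, the replicate number as a block, and both together. Adding counts of near-identical copies to their parent gene and the AP-1 search were chosen after seeing the data.

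The members and lists were chosen with earlier results of these data known. All 33 members are named, with Batf3 as the label check, the 4 further pathway genes with the smallest p, and paralogs above 5% of their family. Other paralogs, gene copies, sex-linked genes and markers were named after their values were seen.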

Additional observations from a re-analysis of the deposited data

How the results depend on the processing

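The count of 0 members called in either direction was the same with DESeq2's size factors, without a filter on low counts, with DESeq2's Wald test, with the GC correction and with gene copies added to their parent. With the replicate block 1 member was called higher in edgeR (Slc16a3, log2 fold change 0.82, adjusted p = 0.00236), and likewise 1 with the replicate block and GC correction together (0.63, adjusted p = 0.0114). The members' median stayed between -0.03 and 0.09 in all settings.

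Leaving out 1 library at a time gave 0 to 3 members higher and 0 to 2 lower. All of these calls came without WT replicate 2, where Slc16a3 (1.14), Pkm (0.44, adjusted p = 0.0488) and Ddit4 (0.57) were higher and Bnip3 (-0.74) and Bnip3l (-0.64) lower in edgeR. With 1 WT library left, that library is assumed to vary like the Batf3-/- libraries.

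Over all tested genes the 10 higher and 6 lower calls became 20 and 8 with DESeq2, 81 and 31 with the replicate block, 53 and 34 with the replicate block and GC correction, and 11 to 301 and 7 to 252 when 1 library was left out. Libraries of the same number had deviations correlated at 0.105, with only 2 pairs, and their titles share a prefix (E85 or E87). Their Xist levels were also alike, at 0.0944 and 0.214 CPM in replicate 1 and 144 and 166 CPM in replicate 2. No label says what number or prefix marks, so the numbers were not taken to pair the samples. The fit with the replicate block has 1 residual degree of freedom.

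Many log2 fold changes changed sign. Without WT replicate 1 the sign turned for 17 of the 33 members, among them Bnip3, the lowest in the main fit (-0.39). With the GC correction 8 log2 fold changes changed sign, each of at most 0.20 in size before it. With the GC correction, and with the replicate block and GC correction, they were -0.027 and -0.022 for Slc2a1, -0.032 and -0.024 for Aldoc, -0.046 and -0.036 for Gapdh, -0.065 and -0.062 for Eno1, -0.023 and -0.019 for Pkm, 0.12 and 0.13 for Slc16a1, -0.031 and -0.032 for Egln3, 0.0083 and 0.012 for Ero1l. When 1 library was left out, the values ran from -0.10 to 0.25 for Slc2a1, -0.048 to 0.32 for Slc2a3, -0.077 to 0.54 for Hk1, -0.17 to 0.45 for Hk2, -0.010 to 0.16 for Gpi1, -0.10 to 0.55 for Pfkl, -0.13 to 0.16 for Pfkp, -0.097 to 0.15 for Aldoc, -0.20 to 0.26 for Gapdh, -0.14 to 0.019 for Pgam1, -0.040 to 0.34 for Eno1, -0.021 to 0.44 for Pkm, -0.40 to 0.19 for Pdk1, -0.041 to 0.059 for Egln3, -0.74 to 0.067 for Bnip3, -0.64 to 0.10 for Bnip3l, -0.30 to 0.20 for Higd1a, -0.40 to 0.062 for Ero1l, -0.17 to 0.13 for P4ha2, -0.58 to 0.33 for Ankrd37, -0.34 to 0.097 for Ndrg1. The cause of these changes was not tested.

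With 2 libraries per genotype and standard errors near 0.2, differences below about 1.5-fold were not resolved for many members. Even the fitted 1.72-fold difference of Slc16a3 did not pass in the fit on genotype alone (edgeR adjusted p = 0.358). The difference in Slc16a3 share ran from 7.62 points (without WT replicate 1) to 18.02 points (without WT replicate 2), and was 11.9 points by longest transcript. Shares of paralogs could not reach an exact p under 0.333.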
